A study of Saccharomyces cerevisiae with 4 samples.

Results

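The genes described here encode 49 budding yeast enzymes or enzyme subunits that use S-adenosylmethionine, nearly all of them to methylate proteins, RNA, lipids or small molecules. They were taken by gene symbol from a list of methyltransferases and matched to the array through the platform annotation, out of 5449 S. cerevisiae genes that the annotation names 1 to a probe set. Each member had 1 probe set, and 48 of the 49 were called present and measured. The measure was the hybridization signal of one-colour Affymetrix arrays, which reports the amount of a transcript relative to the whole RNA of the culture. Wild-type yeast of the laboratory strain W303-1A was compared with the SSG1-1 mutant, a strain studied by the submitters for its longer lifespan. Both strains were kept at 25 °C in rich YPD medium, then pre-grown in synthetic SDC medium of pH 6.0 and grown in fresh SDC for 12 h until they reached early-log phase. Each strain had 2 arrays, numbered 1 and 2 in the labels, and 500 ng of total RNA was labelled for each. The labels name neither the gene that the SSG1-1 allele lies in nor the number of clones, and the targeted gene was therefore not checked here. Nor do they say whether each array stands for its own culture, so that p-values here cover the spread among arrays alone, part of which may be technical.

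S-adenosylmethionine is made from methionine and ATP and is the donor of nearly all cellular methyl groups. Each transfer leaves S-adenosylhomocysteine, which inhibits methyltransferases until it is hydrolysed. In yeast, phosphatidylcholine synthesis is known as a major consumer of the donor, together with sterol synthesis and the methylation of histones, translation factors and stable RNAs. Many of the RNA and translation enzymes act during ribosome and tRNA maturation and are built as a catalytic subunit with a partner, among which Trm112 serves several enzymes at once. The comparison addressed whether the transcripts of these enzymes differ between the strains, by the kind of substrate they methylate.

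All signals below were quantile-normalized, and a difference is the mean log2 signal of the mutant minus that of the wild type. The 2% trimmed mean of the deposited signals ran from 1034 to 1303 over the 4 arrays. Same-numbered arrays of both strains deviated together from their strain means, with a correlation of 0.634 across all tested probe sets and 0.867 across the members, where genes are not independent replicates. Differences within number 1 and within number 2 are therefore given beside each class. Markers of mating type were also examined, because W303-1A is an a-type strain. STE2, the receptor of a cells for alpha-factor, had signals of 13855 on both wild-type arrays and of 12668 and 12979 in the mutant, while STE3, its counterpart in alpha cells, had signals of 47.9, 59.2, 56.4 and 109 on the arrays in the same order. Among the other alpha-cell genes, AFB1 had signals of 1964, 2185, 1336 and 1903 in that order, and SAG1 had 758, 1237, 879 and 961. MF(ALPHA)1 had 31.2, 54.9, 17.9 and 39.4, and MF(ALPHA)2 had 69.9, 95.8, 80.4 and 71.1. The a-cell list of 6 genes had 3 lower in the mutant without overlap. These were STE2 at -0.11 ± 0.05 (SE), STE6 at -0.17 ± 0.13 and ASG7 at -0.91 ± 0.15. The alpha-cell list of 5 genes had 1, AFB1. Of all tested probe sets, 18.0% were lower in this way. The other a-cell genes overlapped between strains, with BAR1 at -0.36 ± 0.25, MFA1 at 0.23 ± 0.19 and MFA2 at 0.01 ± 0.06. Summed over the a-cell list, the signal was 39326 and 43239 in wild-type cells against 40523 and 39154 in mutant cells, and over the alpha-cell list 2871 and 3632 against 2370 and 3083, so both sums overlapped between the strains. The part of mating type in the results below was not tested. The RNA came from whole cultures, in which fewer cells of a kind and less RNA per cell cannot be told apart.

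Methyltransferase transcripts differed little between the strains. Over the 48 measured members the median difference was -0.09, against -0.02 over all 5376 tested probe sets. Of the members, 35 were below 0 (72.9%, against 54.1% of all tested probe sets) and 13 above. In the deposited values, before normalization, 91.7% of the members were below 0 against 79.7% of all tested probe sets, with medians of -0.24 and -0.15. TRM9, a tRNA wobble enzyme, stood lowest at -0.64 ± 0.16 (SE, n = 2 arrays per strain), and CTM1, which methylates cytochrome c, highest at 0.37 ± 0.26. In 32 members the difference was smaller than its own standard error, and in 4 it was more than 2 times the standard error.

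No member passed the test after adjustment. Of the 48, 0 had a limma adjusted p under 0.05, where 0.0186% of all tested probe sets did. The lowest limma adjusted p of a member was 0.931. This fit took no account of the array number, and the count changed in a refit that did, given in the closing section. At an unadjusted p under 0.05, limma gave 4 members lower (TRM8, TRM9, TRM13 and BUD23), which is 8.33% of the members against 1.80% of all tested probe sets, and 0 members higher, against 2.70%. Both mutant arrays lay below both wild-type arrays for 10 members (20.8%, against 18.0% of all tested probe sets) and above them for 2 members, RKM2 and PPM1 (4.17%, against 14.0%). The share of lower members without overlap was thus near the background. The 10 were enzymes of tRNA and rRNA, and whether those classes differ from the others was not tested. An exact two-sided permutation test of 2 arrays against 2 cannot give a p below 0.333, so none is given for single genes.

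**Figure D1:**
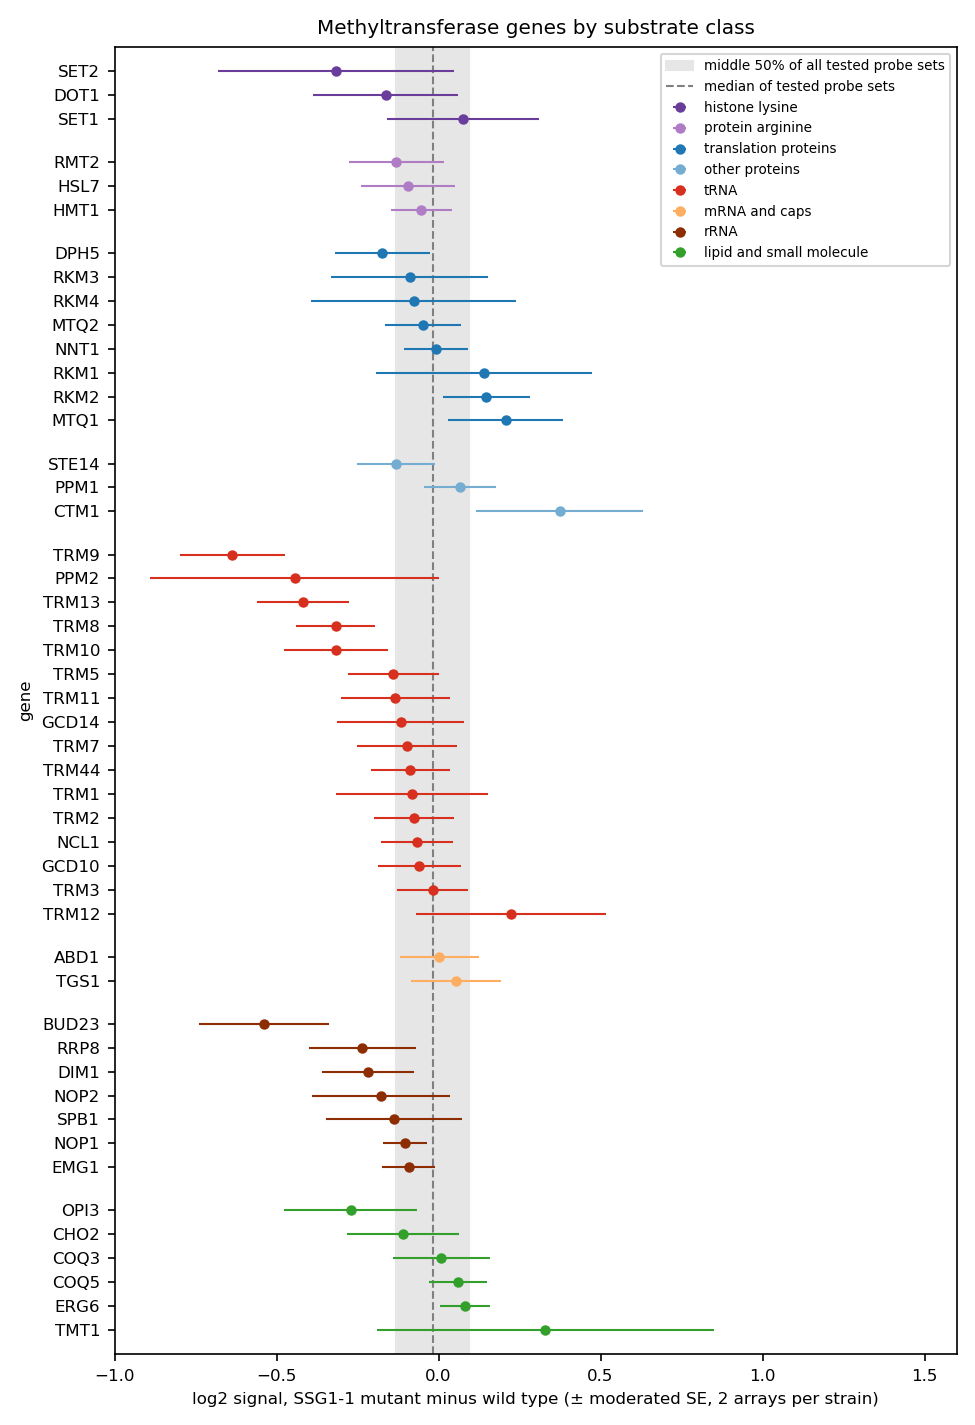
Log2 difference of each of the 48 measured methyltransferase genes, mutant minus wild type (horizontal axis, points), with limma's moderated standard error (bars, 2 arrays per strain), grouped by substrate class; the grey band holds the middle 50% of all tested probe sets and the dashed line their median of -0.02. TRM9 at -0.64 and BUD23 at -0.54 lie farthest to the left among points whose bars stay clear of the band, while most members lie in or near the band.

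Enzymes of tRNA were the largest class, with 16 members, all measured. Their median was -0.11, and 15 of the 16 were below 0. Of these, 7 had both mutant arrays below both wild-type arrays (43.8% of the class, against 18.0% of all tested probe sets), and 0 had them above, against 14.0%. On arrays numbered 1 the class median was -0.13 and on arrays numbered 2 it was -0.10, and 13 of the 16 were lower in the mutant within both numbers. In the deposited values, where the median over all probe sets was -0.15, the class stood at -0.27.

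TRM9 (YML014W) completes the methoxycarbonylmethyl group on wobble uridines, which tune the reading of certain arginine and glutamate codons. Wild-type cells gave signals of 499 and 465, and mutant cells gave 335 and 287. The groups did not overlap, and the signal was 35.7% lower in the mutant (-0.64 ± 0.16 SE, limma adjusted p = 0.931), by 0.58 within number 1 and by 0.70 within number 2 on the log2 scale. TRM13 (YOL125W) methylates a ribose in the acceptor stem. It had signals of 636 and 586 in wild-type cells against 452 and 462 in mutant cells, again with a gap between the strains. The difference was -0.42 ± 0.14, or 25.2% lower.

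TRM8 (YDL201W), the catalytic subunit that methylates a guanosine of the variable loop, had signals of 2233 and 2103 in wild-type cells against 1700 and 1779 in mutant cells. The mutant arrays were both lower, by 19.8% on average (-0.32 ± 0.12). On the log2 scale the mutant was lower by 0.39 within number 1 and by 0.24 within number 2. TRM10 (YOL093W), which methylates a purine between the acceptor and D stems, had signals of 940 and 1115 in wild-type cells against 773 and 874 in mutant cells. The groups lay apart, at -0.32 ± 0.16, although the span within each strain was wider than the gap. These 4 genes were the tRNA enzymes that combined a gap between the strains with a difference of at least 0.2.

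The other tRNA enzymes without overlap had smaller differences. TRM5, which methylates the guanosine beside the anticodon, was at -0.14 ± 0.14. TRM44, which methylates a ribose of serine tRNA, was at -0.09 ± 0.12, and TRM2, which makes the ribothymidine of the T loop, at -0.08 ± 0.12. In these 3 genes the gap between strains was smaller than the standard error.

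The remaining tRNA enzymes overlapped between strains. TRM11, which works with Trm112 on a guanosine near the D stem, was at -0.13 ± 0.17. GCD14 and GCD10, the catalytic and the RNA-binding subunit of the enzyme that makes methyladenosine in the T loop, were at -0.12 ± 0.20 and -0.06 ± 0.13. TRM7, a ribose methylase of the anticodon loop, was at -0.10 ± 0.15, and TRM1, which dimethylates a guanosine between the D and anticodon arms, at -0.08 ± 0.23. NCL1, which makes methylcytosine, was at -0.07 ± 0.11 and TRM3, a ribose methylase of the D loop, at -0.02 ± 0.11. None of these could be placed above or below the wild type beyond the spread of the arrays.

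The enzymes of wybutosine, a bulky base beside the anticodon of phenylalanine tRNA, did not lie on one side of 0. TRM5, given above, takes an early step. TRM12 moves another group of S-adenosylmethionine than the methyl in this pathway and was the single tRNA member above 0. Its signals were 1246 and 863 in wild-type cells against 1518 and 965 in mutant cells, so that both arrays numbered 1 lay above both arrays numbered 2 (0.22 ± 0.29). PPM2, which acts late in the pathway, was the dimmest measured member, at 32.8 and 39.4 in wild-type cells against 18.9 and 36.9 in mutant cells. Its difference of -0.44 ± 0.45 came mostly from the mutant array numbered 1, and without that array it was at 0.038. Of the tRNA enzymes of the anticodon loop (5) and of those acting elsewhere on the tRNA (10), a grouping made after the values were seen, 4 and 10 were below 0, with medians of -0.14 and -0.10.

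Enzymes of rRNA had the lowest class median, -0.18, and all 7 were below 0, also within number 1 (median -0.21) and within number 2 (median -0.16). Both mutant arrays lay below both wild-type arrays for 3 of the 7, BUD23, DIM1 and NOP1 (42.9%, against 18.0% of all tested probe sets). In the deposited values the class median was -0.35. The members were chosen with earlier results of these arrays known, so the class is described here and not tested.

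BUD23 (YCR047C) methylates a guanosine of the small-subunit rRNA and is needed for the export and maturation of that subunit. Its signal was 457 and 355 in wild-type cells against 302 and 255 in mutant cells. The higher mutant array stayed below the lower wild-type array, and the mutant was 31.1% lower (-0.54 ± 0.20), by 0.60 within number 1 and by 0.48 within number 2 on the log2 scale. DIM1 (YPL266W), which dimethylates adenosines near the end of the small-subunit rRNA, had signals of 2132 and 1890 in wild-type cells against 1839 and 1621 in mutant cells. The strains were separated by a narrow gap, at -0.22 ± 0.14.

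The other rRNA enzymes, like DIM1, differed by less than 2 times their standard error. RRP8, which methylates an adenosine of the large-subunit rRNA, was at -0.23 ± 0.16 with overlapping arrays. NOP2, which makes methylcytosine in the large-subunit rRNA, was at -0.18 ± 0.21, and SPB1, which methylates a ribose in the peptidyl transferase centre, at -0.14 ± 0.21. NOP1, the yeast fibrillarin of the box C/D particles, was at -0.10 ± 0.07, with the lower wild-type array at 14463 and the higher mutant array at 14438. EMG1, which methylates a pseudouridine of the small-subunit rRNA, was at -0.09 ± 0.08.

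The enzymes of mRNA and small nuclear RNA caps did not share the lower signals. Their median was 0.03, with -0.0078 within number 1 and 0.064 within number 2. TGS1 (YPL157W), which makes the hypermethylated cap of small nuclear and nucleolar RNAs, had signals of 822 and 887 in wild-type cells against 847 and 928 in mutant cells. The arrays interleaved, at 0.05 ± 0.14. ABD1, the methyltransferase of the mRNA cap, was at 0.00275 ± 0.12. Both values were negative in the deposited values, and ABD1 also with median centring. IME4, which methylates adenosines of mRNA during meiosis, was called absent in both strains, with deposited signals of 1.8 and 4.8 in wild-type cells against 10.9 and 5.2 in mutant cells, and was not tested.

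Pooled over their classes, 22 of 25 measured RNA enzymes were below 0, with a median of -0.12. Without overlap, 10 were lower (40.0%, against 18.0% of all tested probe sets) and 0 higher, against 14.0%. Of 17 protein methyltransferases, 11 were below 0, with a median of -0.05. Without overlap, 0 were lower, against 18.0%, and 2 higher (11.8%, against 14.0%).

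**Figure D2:**
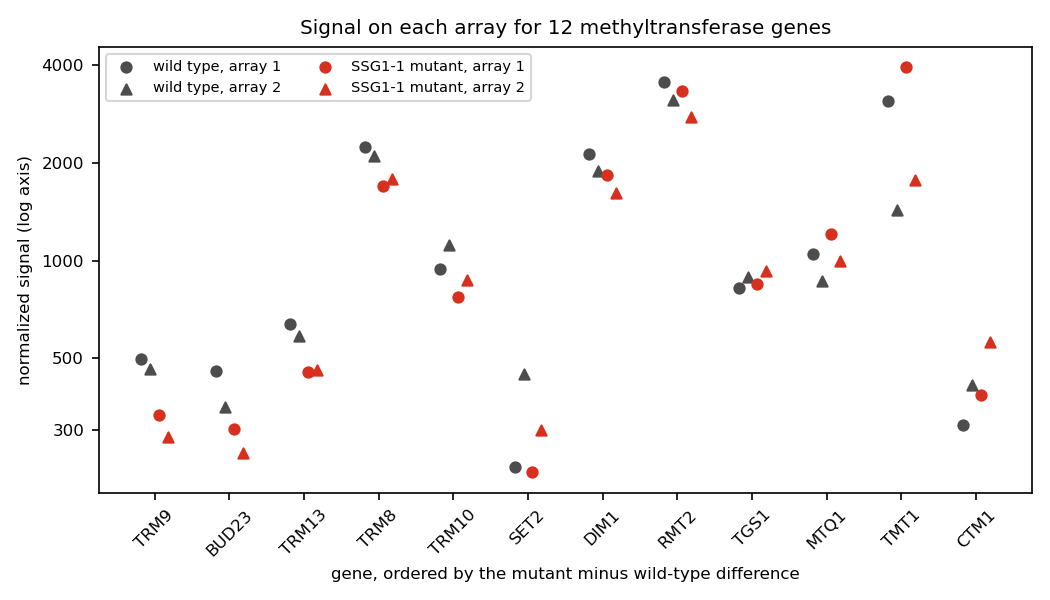
Normalized signal (vertical log axis) on each of the 4 arrays for the 12 methyltransferase genes given with all their arrays by the stated rule, ordered by difference, with grey for wild type, red for mutant, circles for arrays numbered 1 and triangles for arrays numbered 2. TRM9, BUD23, TRM13, TRM8, TRM10 and DIM1 show a gap between the strains. The other genes drawn, SET2, TMT1, CTM1, MTQ1, RMT2 and TGS1, are split more by array number than by strain.

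TRM9, BUD23, TRM11 and MTQ2 share the activator Trm112. They were put together after the values of TRM9 and BUD23 were seen, so no summary of the 4 is given. TRM11, at -0.13 ± 0.17, and MTQ2 were within their standard errors of 0. MTQ2, which methylates the glutamine of the cytosolic release factor, was at -0.05 ± 0.12. TRM112 itself had signals of 5787 and 5150 in wild-type cells against 5001 and 4882 in mutant cells. Its arrays did not overlap, and the difference was -0.14 ± 0.10.

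Histone methyltransferases overlapped between the strains in all 3 cases and had a median of -0.16, with -0.06 within number 1 and -0.13 within number 2. Without wild-type array 2 the median was 0.16 and without mutant array 1 it was 0.058. SET2 (YJL168C), which methylates histone H3 in the bodies of transcribed genes, had signals of 232 and 449 in wild-type cells against 223 and 301 in mutant cells. The wild-type arrays spanned the mutant's higher array, and the difference of -0.32 ± 0.36 was smaller than its error. It was -0.06 within number 1 and -0.57 within number 2. DOT1, which methylates H3 in the nucleosome core, was at -0.16 ± 0.22, and SET1, the catalytic subunit of COMPASS at active promoters, at 0.08 ± 0.23. SET1 was negative in the deposited values.

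Protein arginine methyltransferases were also close to 0, with all 3 below it and overlapping, and a median of -0.09, which was 0.0024 without mutant array 2. RMT2 (YDR465C), which modifies a protein of the large ribosomal subunit, had signals of 3561 and 3117 in wild-type cells against 3338 and 2776 in mutant cells. The arrays overlapped at -0.13 ± 0.15. HSL7, which acts in the morphogenesis checkpoint, was at -0.09 ± 0.15, and HMT1, the main arginine methyltransferase of RNA-binding proteins, at -0.05 ± 0.09.

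The 8 enzymes that modify ribosomal proteins, elongation factors and release factors had a median of -0.03, with 5 below 0. MTQ1 (YNL063W), which methylates mitochondrial release factors, had the largest difference. Its signals were 1047 and 865 in wild-type cells against 1207 and 999 in mutant cells, with 1 mutant array inside the wild-type span. The difference was 0.21 ± 0.18, and about the same within number 1 (0.21) and within number 2 (0.21). RKM2, a ribosomal lysine methyltransferase, had signals of 1151 and 1289 in wild-type cells against 1371 and 1328 in mutant cells. Its mutant arrays were both higher, by 0.15 ± 0.14, but not in the deposited values, where the difference was -0.01.

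The other ribosomal lysine methyltransferases varied more between the array numbers than between the strains. RKM1 had signals of 1319 and 2286 in wild-type cells against 1564 and 2340 in mutant cells (0.14 ± 0.33), and it was negative in the deposited values. RKM3 and RKM4 were at -0.09 ± 0.24 and -0.08 ± 0.32. Arrays numbered 1 were lower than arrays numbered 2 in both strains for each of these 3 genes. DPH5, which methylates the precursor of diphthamide on elongation factor eEF2, was at -0.17 ± 0.15, and NNT1, which methylates eEF1A, at -0.01 ± 0.10.

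The 3 other protein methyltransferases had a median of 0.06, which was -0.09 in the deposited values. CTM1 (YHR109W) had signals of 311 and 415 in wild-type cells against 386 and 561 in mutant cells. Its groups overlapped, since the lower mutant array lay under the higher wild-type array, but within each number the mutant was higher, by 0.31 and 0.44. PPM1, the carboxyl methyltransferase of protein phosphatase PP2A, was at 0.06 ± 0.11 without overlap and at -0.09 in the deposited values. STE14, which methylates the prenylated cysteine of a-factor and Ras proteins, was at -0.13 ± 0.12. It differed by 0.00266 within number 1 and by -0.27 within number 2.

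Lipid and small-molecule methyltransferases had a median of 0.03, which was negative in the deposited values (-0.12), and all 6 overlapped between strains. CHO2 and OPI3 methylate phosphatidylethanolamine to phosphatidylcholine in successive steps. OPI3 had signals of 12712 and 15329 in wild-type cells against 9512 and 14065 in mutant cells, so that the mutant array numbered 1 lay below the others. The difference was -0.27 ± 0.21, with -0.42 within number 1 and -0.12 within number 2, and 0.01 without that mutant array. CHO2 was at -0.11 ± 0.17 and, like OPI3, lower on arrays numbered 1 in both strains.

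TMT1 (YER175C), which methylates trans-aconitate, had signals of 3103 and 1428 in wild-type cells against 3942 and 1774 in mutant cells. The arrays numbered 1 were both above the arrays numbered 2, and the strain difference was 0.33 ± 0.52. Within the numbers it was 0.35 and 0.31. ERG6, the sterol methyltransferase of the ergosterol pathway, was at 0.08 ± 0.08. COQ5 and COQ3, which methylate intermediates of coenzyme Q, were at 0.06 ± 0.09 and 0.01 ± 0.15. ERG6, COQ5 and COQ3 were negative in the deposited values.

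Differences between the array numbers were larger than those between the strains for 35 of the 48 members (72.9%, against 62.6% of all tested probe sets). TMT1 was at 1.14 and TRM12 at 0.59 for number 1 minus number 2, while SET2 was at -0.70, RKM1 at -0.69, RKM4 at -0.63, PPM2 at -0.61 and CTM1 at -0.48. Arrays numbered 1 were below arrays numbered 2 in both strains for 22 members (45.8%, against 39.6%). Among the 7 enzymes with a SET domain (SET1, SET2, CTM1 and RKM1 to RKM4), a fold that the other members lack, this held for 6. Their median for number 1 minus number 2 was -0.48.

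**Figure D3:**
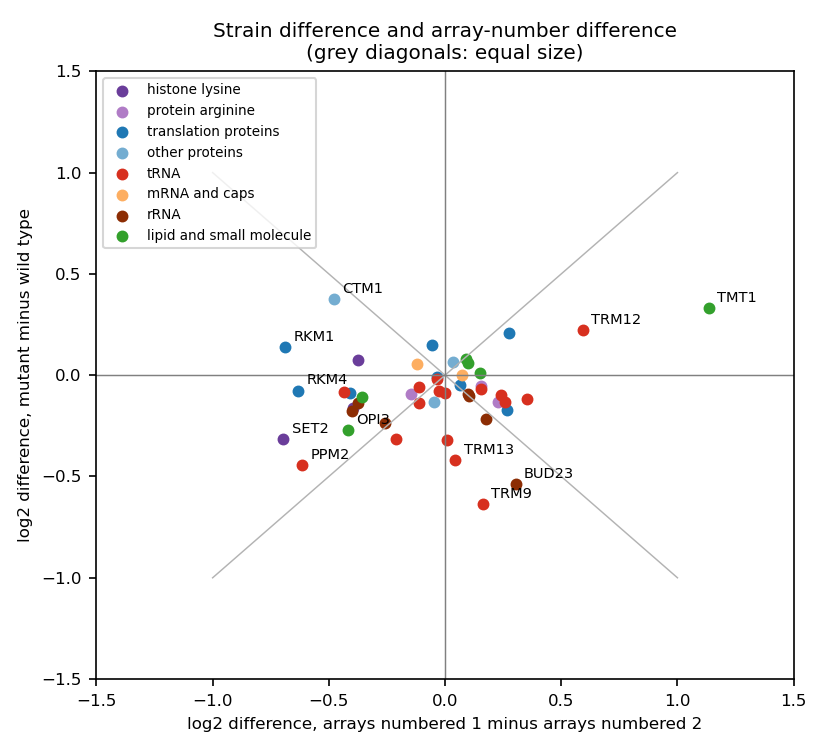
Log2 difference between the strains (vertical axis, mutant minus wild type) against the log2 difference between array numbers (horizontal axis, number 1 minus number 2) for each of the 48 measured members, coloured by substrate class, with grey diagonals where both are equal in size. TMT1 at 1.14 and SET2 at -0.70 lie far out on the horizontal axis, and TRM9 at -0.64 far down on the vertical axis.

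Within the array numbers the strain differences kept their direction for most members. The mutant was below the wild type within both numbers for 30 members (62.5%, against 36.6% of all tested probe sets) and above it within both for 10 (20.8%, against 30.0%). All 7 rRNA enzymes and 13 of the 16 tRNA enzymes were among the 30, and CTM1, MTQ1 and TMT1 among the 10. The other 8 members changed sign between the numbers, among them SET1, STE14 and TRM1.

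**Figure D4:**
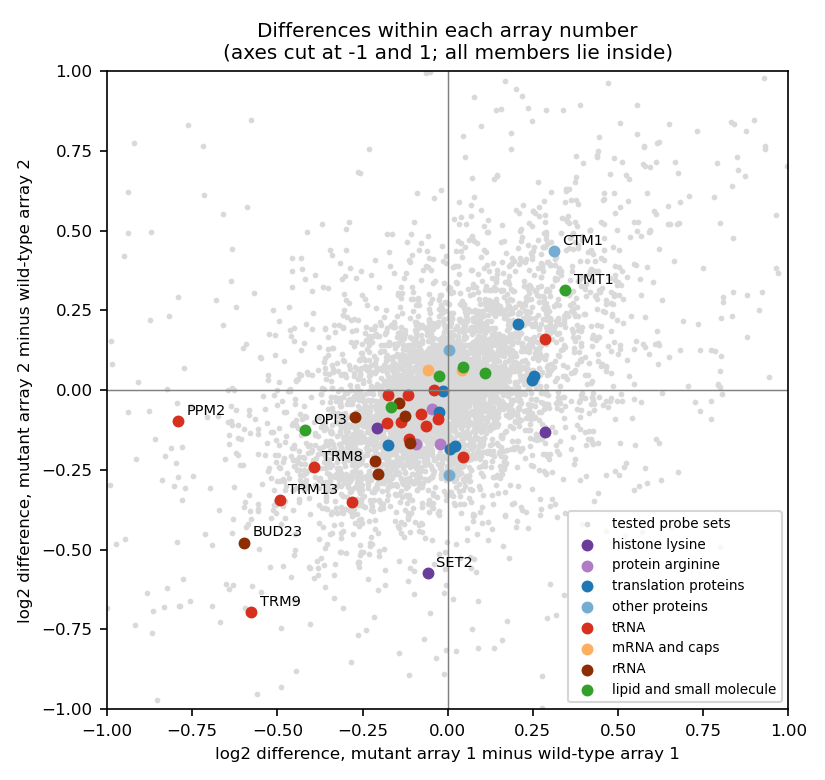
Log2 difference of the mutant from the wild type on arrays numbered 1 (horizontal axis) and on arrays numbered 2 (vertical axis), for all tested probe sets (grey, axes cut at -1 and 1) and the 48 measured members (coloured by substrate class). TRM9, BUD23, TRM13 and TRM8 lie in the lower left quadrant, below 0 on both axes, and CTM1 and TMT1 in the upper right.

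Genes around the methyltransferases were examined from 3 lists. The S-adenosylmethionine cycle comprises synthesis of the donor, removal of S-adenosylhomocysteine and remaking of methionine. Its 8 genes had a median of 0.02, with 0 past the adjusted threshold. Without overlap 2 were higher and 2 lower (25.0% each, against 14.0% and 18.0% of all tested probe sets). SAH1, which hydrolyses S-adenosylhomocysteine, was at 0.12 ± 0.07 and MET6, the methionine synthase, at 0.15 ± 0.07, both higher on both mutant arrays. ADO1, the adenosine kinase that clears the adenosine formed, was at -0.10 ± 0.07. ERC1, a membrane protein known for raising S-adenosylmethionine accumulation, had signals of 582 and 589 in wild-type cells against 477 and 472 in mutant cells (-0.30 ± 0.14), with no overlap. The synthetase genes SAM1 and SAM2 were at 0.06 ± 0.07 and -0.01 ± 0.11, and the reductase genes MET12 and MET13 at -0.07 ± 0.17 and 0.14 ± 0.14, all with overlapping arrays.

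The 16 subunits and activators of the methyltransferases had a median of -0.10, and 13 were below 0. Both mutant arrays were lower for 6 (37.5%, against 18.0% of all tested probe sets) and higher for 0, against 14.0%, and 0 passed the adjusted threshold. TRM82, the partner of TRM8, was at -0.12 ± 0.10 and among the 6. BRE2, a COMPASS subunit that works with SET1, had signals of 227 and 252 in wild-type cells against 198 on both mutant arrays. The groups lay apart at -0.27 ± 0.17.

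The other S-adenosylmethionine methyltransferases, 22 genes outside the 49, had a median of -0.10, with 16 below 0. Both mutant arrays were lower for 8 (36.4%, against 18.0% of all tested probe sets) and higher for 2 (9.09%, against 14.0%), and 0 passed the adjusted threshold. The 8 were BMT2, TAE1, SAM4, SFM1, EFM2, EFM4, EFM5 and EFM6, of which all but BMT2 and SAM4 act on proteins. The protein enzymes EFM1, EFM3, HPM1 and RKM5 overlapped between strains. So did the RNA enzymes ABP140, RCM1, BMT5, BMT6, MRM1, MRM2 and TYW3. BMT2, which methylates an adenosine of the large-subunit rRNA, had signals of 565 and 564 in wild-type cells against 404 and 385 in mutant cells (-0.52 ± 0.14). TAE1, which methylates the ends of ribosomal proteins, had signals of 1070 and 1047 in wild-type cells against 834 and 743 in mutant cells (-0.43 ± 0.14). Both genes had a gap between the strains wider than the span of either strain. On the log2 scale the mutant arrays lay 0.07 apart for BMT2 and 0.17 apart for TAE1, more than the wild-type arrays did.

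The 2 genes higher without overlap act on small molecules. MHT1, which methylates homocysteine to methionine with S-methylmethionine as its preferred donor, had signals of 417 and 382 in wild-type cells against 1243 and 872 in mutant cells. The mutant was 2.61-fold higher (1.38 ± 0.21, limma adjusted p = 0.575), farther from 0 than any of the 48 members. CRG1, a methyltransferase known for resistance to cantharidin, had signals of 620 and 493 in wild-type cells against 722 and 936 in mutant cells, at 0.57 ± 0.21. Both mutant arrays were above both wild-type arrays, and their span was wider than that of the wild type.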

How the data were processed

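Values were the deposited intensity of each probe set, on a linear scale, from the series table. Per the file headers a second table holds MAS5 signals and calls, and the submitters' processing notes name GCOS. The scaling target is not given in the sources used here. Among the MAS5 data, 4 columns have names that match no sample and were not used, so calls came from 1 array per strain. The signals beside these calls equalled those of the arrays numbered 2 on 10928 of 10928 probe sets in each strain. After removal of 213 controls, signals were floored at 0.1, log2-transformed and quantile-normalized. Tested were 5376 probe sets named for 1 S. cerevisiae gene and present in at least 1 call column, and 122 were dropped. Symbols follow the R64 gene table. Strains were compared with limma 3.58.1 in R 4.3.3 (lmFit, eBayes with trend, Benjamini-Hochberg over all probe sets, threshold 0.05). The fit was tested on simulated data in which the arrays varied independently. That test could not show how the shared deviation of same-numbered arrays affects the calls. Having 2 arrays per strain limits the precision, with a median standard error of 0.163. Every member is named, and arrays are given for members without overlap and a difference of at least 0.2 and for the largest of each class. The arrays of TRM12, PPM2, RKM1, RKM2, OPI3 and TRM112 were added after their values were seen. Members and lists were chosen with earlier results of these data known. Alternatives were scaling, floor, filter, probe set, variance trend, membership, replicate number and each array left out. Figures were drawn with matplotlib 3.10.9.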

Additional observations from a re-analysis of the deposited data

How the results depend on the processing

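Of the 48 measured members, 17 kept their sign in every refit of scaling, floor, filter, probe set, variance, block and arrays (15 below 0, among them TRM8, TRM9, TRM10, TRM13, BUD23 and DIM1, and CTM1 and MTQ1 above) and 31 took the other sign in at least 1. Of the 17, STE14 was above 0 within number 1 (0.00266). Members below 0 numbered 28 to 44, tRNA members 12 to 15 and rRNA members 5 to 7 under the alternatives run. As deposited, 79.7% of all probe sets were below 0, their median was -0.15, and the medians were -0.24 for the members, -0.32 for histones, -0.24 for arginine, -0.20 for translation, -0.091 for other proteins, -0.27 for tRNA, -0.13 for caps, -0.35 for rRNA and -0.12 for lipids and small molecules. There, 14 members were lower and 0 higher without overlap, and with median centring 11 and 1, against 10 and 2 in the main fit. Shares over all probe sets without overlap are not given for these settings, so these counts cannot be set against a background. As deposited, SET1 (-0.061), RKM1 (-0.032), RKM2 (-0.0075), PPM1 (-0.091) and ABD1 (-0.16) took the other sign. So did TGS1 (-0.11), ERG6 (-0.033), COQ3 (-0.14) and COQ5 (-0.098). With median centring ABD1 was at -0.013.

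The replicate number was checked for pairing, which the labels do not state. With a replicate block 8 of the 48 members passed (TRM8, TRM9, TRM10, TRM13, BUD23 and OPI3 lower, CTM1 and TMT1 higher). Over all probe sets 732 of 5376 passed with the block, against 1 without it. Whether the members differ from all probe sets in this was not tested. Within both numbers 30 members were lower and 10 higher. Within number 1 the medians were -0.061 for the members, 0.00266 for other proteins, -0.13 for tRNA and -0.0078 for caps, and within number 2 they were 0.13 for other proteins and 0.064 for caps. Without GCD10 and TRM12 the tRNA median was -0.13, and with PPM2 counted beside PPM1 that of other proteins was -0.033.

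Leaving out 1 array at a time, 20 to 26 members were lower and 6 to 9 higher without overlap, since fewer arrays were compared. Shares over all tested probe sets are not given for these comparisons, so the counts cannot be set against a background. The median was -0.091 to -0.057 for the members, -0.39 to 0.16 for histones, -0.13 to 0.0024 for arginine, -0.036 to 0.11 for translation, 0.016 to 0.11 for other proteins, -0.18 to -0.10 for tRNA, -0.33 to -0.12 for rRNA and -0.039 to 0.11 for lipids and small molecules. The differences that changed sign ran from -0.21 to 0.37 (SET1), -0.78 to 0.16 (SET2), -0.39 to 0.058 (DOT1), -0.13 to 0.033 (HMT1), -0.26 to 0.0024 (RMT2), -0.20 to 0.015 (HSL7), -0.26 to 0.54 (RKM1), -0.35 to 0.16 (RKM3) and -0.43 to 0.29 (RKM4). Further ranges were -0.029 to 0.0096 (NNT1), -0.36 to 0.19 (TRM1), -0.049 to 0.0105 (TRM3), -0.25 to 0.066 (TRM7), -0.27 to 0.0059 (TRM11), -0.11 to 0.56 (TRM12), -0.16 to 0.034 (NCL1), -0.13 to 0.012 (GCD10) and -0.30 to 0.0701 (GCD14). The last were -0.93 to 0.038 (PPM2), -0.065 to 0.071 (ABD1), -0.012 to 0.11 (TGS1), -0.34 to 0.064 (SPB1), -0.43 to 0.0695 (NOP2), -0.0804 to 0.10 (COQ3), -0.32 to 0.092 (CHO2), -0.56 to 0.0097 (OPI3) and -0.25 to 0.92 (TMT1). The lone array of a strain is then assumed to vary like the other strain's. The other settings called 0 members in limma, and over all probe sets they called 6 as deposited, 4 with median centring, 0 with a floor of 16 or without the variance trend and 1 to 4 without an array, against 1. Signal over background limits PPM2 most, whose lowest signal was 18.9.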
